A study of Mus musculus with 4 samples.

Results

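The NF-κB system of the injured liver was followed through 10 genes that encode its inducible subunits and its feedback inhibitors, namely Nfkbia, Nfkbie, Nfkbiz, Tnfaip3, Relb, Nfkb1, Nfkb2, Bcl3, Birc3 and Zc3h12a. They were chosen by gene symbol, and all 10 were found among the 27027 gene entries of the deposited table. Male C57BL/6J mice aged 9 to 12 weeks were fasted for 10 h and then received either 0.9% NaCl (control) or APAP (acetaminophen) at 300 mg/kg intraperitoneally, which causes acute liver injury (ALI). Hepatic RNA was taken at 24 h and 48 h, which the study treats as the start of the resolution phase. RNA of 6 vehicle-treated mice at each time and of 7 APAP-treated mice at each time was pooled in equal shares, and each of the 4 pools gave 1 library of 3′mRNA sequencing (MACE).

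NF-κB is a family of dimeric transcription factors that rest in the cytoplasm bound to IκB inhibitors. Signals from tumour necrosis factor, interleukin-1 or Toll-like receptors activate the IκB kinase, IκB is degraded, and the freed dimer enters the nucleus and binds κB sites near inflammatory and survival genes. Many of its targets encode brakes on the same pathway: new IκB that exports the dimer, enzymes that trim ubiquitin chains from receptor complexes, and an RNase that destroys inflammatory mRNAs. The transcripts of these brakes are therefore commonly used as a readout of pathway activity, in hepatocytes as in the macrophages that surround them.

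Windows of 300 bases around annotated start sites (250 bases before and 50 after, RefSeq, GRCm38) were present for 7 of the 10 genes, and Nfkbiz, Relb and Nfkb1 had none. The κB consensus, a motif of 10 bases, was looked for on both strands. It was found in 7 of the 10 windows and for 5 of the 7 genes, against 2779 of all 32851 mouse windows of the same length (8.46%). The windows of Nfkb2 starts 2 and 3 overlap and hold the same site, which is counted in both. Because NF-κB feedback genes were listed here for their known role, the share of windows with a match describes the choice of genes and was not tested. The windows of Nfkbia, which encodes IκBα, of Tnfaip3, of Nfkb2 and of Bcl3 are printed as examples with a match, and that of Birc3 is printed as a feedback gene without a match. Nfkbie also holds a match, and its window is not printed. Capitals mark κB consensus matches, and each window is written 5′ to 3′ on the strand of its gene.
Nfkbia chr12:55492598-55492897 (minus strand): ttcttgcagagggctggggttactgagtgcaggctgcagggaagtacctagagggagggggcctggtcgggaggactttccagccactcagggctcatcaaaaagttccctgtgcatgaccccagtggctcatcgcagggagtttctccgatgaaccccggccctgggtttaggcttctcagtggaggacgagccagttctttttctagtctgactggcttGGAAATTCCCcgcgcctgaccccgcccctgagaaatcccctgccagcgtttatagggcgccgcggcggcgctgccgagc
Tnfaip3 start 1 chr10:19015361-19015660 (minus strand): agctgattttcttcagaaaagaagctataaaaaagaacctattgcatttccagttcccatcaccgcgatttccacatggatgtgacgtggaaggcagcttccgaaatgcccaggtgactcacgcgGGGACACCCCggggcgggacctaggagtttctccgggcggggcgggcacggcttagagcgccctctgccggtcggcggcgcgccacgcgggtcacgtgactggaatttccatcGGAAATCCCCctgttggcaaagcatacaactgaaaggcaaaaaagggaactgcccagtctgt
Nfkb2 start 1 chr19:46304487-46304786 (plus strand): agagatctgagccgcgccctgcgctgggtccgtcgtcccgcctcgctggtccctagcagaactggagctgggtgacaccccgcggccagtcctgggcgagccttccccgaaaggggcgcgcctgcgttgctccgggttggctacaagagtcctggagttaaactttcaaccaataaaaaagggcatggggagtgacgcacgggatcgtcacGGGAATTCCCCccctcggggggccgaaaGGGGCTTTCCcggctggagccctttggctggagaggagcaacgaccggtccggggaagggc
Bcl3 chr7:19822706-19823005 (minus strand): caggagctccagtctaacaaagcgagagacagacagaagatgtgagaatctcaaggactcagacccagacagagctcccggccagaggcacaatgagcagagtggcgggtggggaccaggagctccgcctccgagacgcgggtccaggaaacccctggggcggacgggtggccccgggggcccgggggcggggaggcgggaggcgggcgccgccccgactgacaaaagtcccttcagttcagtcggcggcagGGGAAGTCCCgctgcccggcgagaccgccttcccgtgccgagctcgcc
Birc3 chr9:7873121-7873420 (minus strand): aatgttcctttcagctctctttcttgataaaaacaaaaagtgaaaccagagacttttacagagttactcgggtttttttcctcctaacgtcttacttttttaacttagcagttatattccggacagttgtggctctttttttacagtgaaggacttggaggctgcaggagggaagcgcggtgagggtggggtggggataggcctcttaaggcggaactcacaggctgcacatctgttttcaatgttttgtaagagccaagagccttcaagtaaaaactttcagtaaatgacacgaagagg

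Counted as the distance in bases from the annotated start base, the match of Nfkbia lay at -29 to -20 and that of Bcl3 at 2 to 11. Tnfaip3 start 1 held matches at -125 to -116 and at -12 to -3, whereas the window of its second start held none. Nfkb2 start 1 held 3 matches, with a pair that overlaps (-39 to -30 and -38 to -29) and the other at -11 to -2. At 3 matches in 300 bases it belonged to the 402 windows (1.22% of all) with at least 2. Nfkbie held a match at -106 to -97, and neither Birc3 nor Zc3h12a held any. A match is a string of letters in this window and was not examined for binding.

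**Figure D1:**
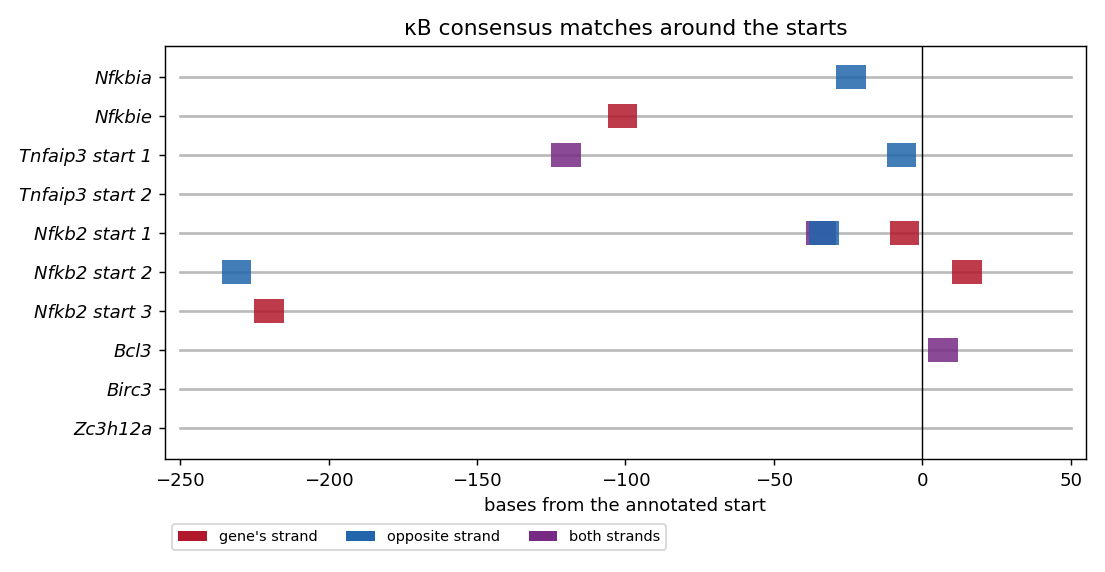
Each row is a window of 300 bases around an annotated start site (horizontal axis, bases from the start, with the vertical line at the start), and blocks of 10 bases are κB consensus matches on the strand of the gene (red), the opposite strand (blue) or both (purple). The matches of Nfkbia, Bcl3 and Nfkb2 start 1 lie close to the start, and the windows of Birc3, Zc3h12a and Tnfaip3 start 2 hold none.

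The libraries held 4859661 (control, 24 h), 5191990 (control, 48 h), 5698778 (APAP, 24 h) and 4938164 reads (APAP, 48 h). The tissue label was checked against Alb, the defining transcript of hepatocytes, which was counted with 208729 to 254523 reads per library. Since each group is 1 library, no difference below was tested and none has a replicate behind it. A fold is the ratio of APAP to the control of the same time after division by size factors (0.880 and 0.933 for the controls, 1.17 and 1.07 for APAP), and its bracketed range is a 95% exact interval that covers counting error only, not the spread between mice. The 2-fold and 5-fold sizes used below are fixed sizes of difference, and the background is formed by the 14028 genes whose mean reached 5 normalised reads. The members Tnfaip3 (mean 4.86) and Zc3h12a (mean 4.54) lay below that minimum and 8 of the 10 above it, and counts of members below refer to all 10.

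A level at least 2-fold over control was seen at 24 h for 3 of the 10 genes (Nfkbiz, Tnfaip3 and Zc3h12a), and for 7.88% of all genes tested. At 48 h, 3 of 10 were again at least 2-fold higher (Relb, Tnfaip3 and Zc3h12a), against 8.14% of all genes tested. Tnfaip3 and Zc3h12a were so at both times, as were 2.76% of the genes tested, but neither of them is among the genes tested, and both rest on few reads. None of the 10 genes was at least 2-fold lower at 24 h, at 48 h or at both, where 7.44%, 6.93% and 2.7% of the genes tested were. At the 5-fold size, Tnfaip3 and Zc3h12a passed at 24 h (background 1.41%) and Relb and Zc3h12a at 48 h (background 1.03%). Counted as the background was, among the 8 genes with enough reads, Nfkbiz alone passed 2-fold at 24 h and Relb alone at 48 h, 0 of 8 did at both times, and at 5-fold 0 of 8 passed at 24 h and 1 of 8 at 48 h. These shares are set side by side without a test, since genes with few reads reach a given fold more easily than genes with many.

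Read by their counting intervals, the 10 genes divided at 24 h. The intervals of 5 genes lay above 1 at 24 h (Nfkbia, Nfkbiz and Bcl3, with enough reads, and Tnfaip3 and Zc3h12a), compared with 14.4% of the genes tested, and those of Nfkb1 and Birc3 lay below 1, compared with 16.5%. At 48 h the intervals of Nfkbia and Relb lay above 1 (background 13.1%) and none lay below 1 (background 16.9%). The median log2 fold of the 10 genes was 0.52 at 24 h and 0.62 at 48 h, whereas the median of all genes tested was 0.01 at 24 h and -0.00 at 48 h. The 10 include Tnfaip3 (2.91 and 1.03) and Zc3h12a (3.04 and 2.61), which lack the reads to be among the genes tested. Without them the 24 h median lay lower, between Relb (0.17) and Nfkb2 (0.28). The 48 h median then lay between Nfkbie (0.34) and Nfkbia (0.61). The members ranged from -0.85 to 3.04 at 24 h and from -0.04 to 2.61 at 48 h, and 7 and 9 of them, respectively, had a fold above 1. Among the genes tested, 7051 of the 14000 with a fold did so at 24 h and 6959 of 13985 at 48 h. Added together, the 10 genes took 81.5 and 76.8 RPM (reads scaled to the library total) in the controls at 24 h and 48 h and 122 and 127 RPM after APAP, a sum to which Nfkbia contributed the most. In whole liver, fewer cells of a type and less RNA per cell cannot be told apart for any of these values.

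**Figure D2:**
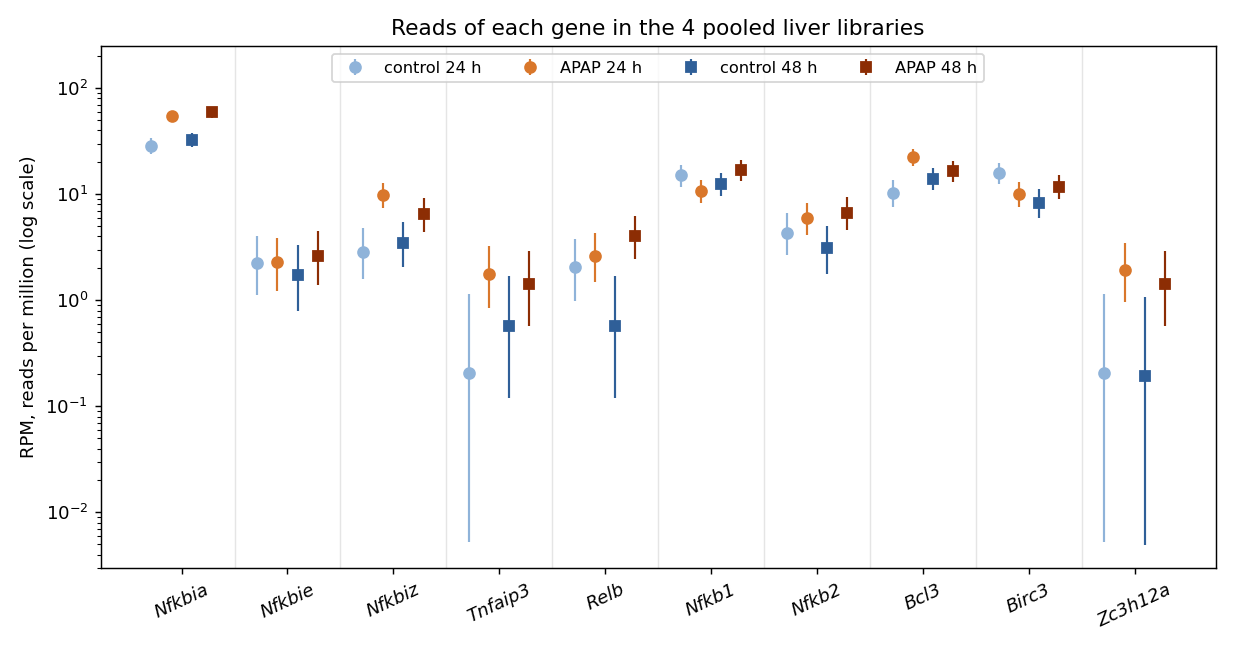
RPM of each gene (vertical axis, log scale) in the 4 pooled libraries, with 95% exact counting intervals as bars. Both APAP libraries of Nfkbia, at 54.6 and 59.3, lie above both controls, at 28.4 and 32.4, whereas the bars of Nfkbie overlap in all 4 libraries.

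The inhibitors that hold NF-κB in the cytoplasm were Nfkbia and Nfkbie, which encode IκBα and IκBε. Nfkbia was counted with 138 reads in the control at 24 h, 168 in the control at 48 h, 311 after APAP at 24 h and 293 after APAP at 48 h. Both APAP libraries were thus higher than both controls, and APAP exceeded the control of its time 1.69-fold at 24 h (1.38–2.08) and 1.53-fold at 48 h (1.26–1.85). These folds were larger than those of 87.9% of the genes tested at 24 h and of 83.8% at 48 h. The change between times was within counting error, with a ratio of the 48 h fold to the 24 h fold of 0.903 (0.679–1.2). Nfkbia was the sole gene of the 10 whose interval lay above 1 at both times. It also had the most reads of the 10, which narrows its intervals. At 48 h the folds of Nfkbiz (1.55), Nfkb2 (1.80), Tnfaip3 (2.04) and Zc3h12a (6.12) were larger, with intervals that included 1.

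Nfkbie gave 11 and 9 reads in the controls at 24 h and 48 h and 13 reads in each APAP library. No difference was detectable at this depth. Its folds were 0.885 at 24 h (0.366–2.18) and 1.26 at 48 h (0.5–3.35), and scaling by library totals in place of size factors took the 24 h fold to 1.01, on the other side of 1. The intervals leave room for a change of 2-fold in either direction at 24 h.

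Nfkbiz and Bcl3 encode the nuclear IκB proteins IκBζ and BCL3, which bind NF-κB on chromatin and there act mainly as co-regulators of a subset of its targets. Nfkbiz was counted with 14 and 18 reads in the controls at 24 h and 48 h, with 56 after APAP at 24 h and with 32 after APAP at 48 h. The controls lay within counting error of each other (24 h over 48 h, 0.825, 0.380–1.75), and the 24 h APAP library was the highest, at 3.0-fold over its control (1.65–5.83), with 1.55-fold at 48 h (0.847–2.94). Between the APAP libraries themselves, the 48 h value was 0.629 of the 24 h value (0.394–0.988). The folds at both times nevertheless could not be separated by counting error, as their ratio of 0.519 had an interval from 0.209 to 1.28.

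Bcl3 gave 50 and 73 reads in the controls at 24 h and 48 h, 127 after APAP at 24 h and 81 after APAP at 48 h. The 24 h APAP library stood above the other 3 libraries. Its fold was 1.90 at 24 h (1.36–2.70) and 0.970 at 48 h (0.698–1.35), a 48 h value that turned to 1.17 when libraries were scaled by their totals. The 48 h fold was 0.510 of the 24 h fold (0.315–0.824), which is a larger difference than counting error gives. Against the control of the other time, the 24 h fold was 1.38 and the 48 h fold 1.34, and the 24 h control itself was at 0.726 of the 48 h control (0.496–1.06). The APAP libraries alone, compared with each other, still gave a 48 h level of 0.702 of the 24 h level (0.525–0.935). The nuclear IκB genes thus shared their highest level in the 24 h APAP library.

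The next group acts away from the dimer itself. Tnfaip3 encodes a ubiquitin-editing enzyme that switches off receptor complexes upstream of the IκB kinase. Tnfaip3 was counted with only 1 and 3 reads in the controls at 24 h and 48 h, and with 10 and 7 reads in the APAP libraries at these times. Both APAP libraries exceeded both controls. The folds were 7.49 at 24 h (1.07–325) and 2.04 at 48 h (0.466–12.2), and the width of the ranges comes from the few control reads.

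Zc3h12a encodes an RNase that degrades mRNAs of inflammatory cytokines. It gave 1 read in each control library, 11 reads after APAP at 24 h and 7 after APAP at 48 h. The pattern across libraries resembled that of Tnfaip3, with folds of 8.24 at 24 h (1.2–355) and 6.12 at 48 h (0.786–276). When controls of 3 reads or fewer were set to 3 reads, the 24 h folds became 2.75 for Zc3h12a and 2.50 for Tnfaip3. Both then stayed above 2-fold at 24 h and neither reached 5-fold.

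Birc3 encodes a ubiquitin ligase that assembles survival signals at the tumour necrosis factor receptor and restrains the non-canonical pathway. It gave 77 reads in the control at 24 h, 43 in the control at 48 h, 57 after APAP at 24 h and 58 after APAP at 48 h. The 24 h control was the highest of the 4 libraries and the other 3 were close together. APAP was 0.555 of the control at 24 h (0.387–0.791) and 1.18 of the control at 48 h (0.781–1.79), and the ratio between these folds was 2.13 (1.22–3.71). With the control of the other time, the 24 h fold was 1.05 and the 48 h fold 0.621, so both directions turned with the choice of control. The controls themselves differed 1.90-fold (1.29–2.83), whereas the APAP libraries differed 1.12-fold (0.764–1.64).

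Of the subunits, Nfkb1 and Nfkb2 encode precursors that are processed into DNA-binding partners and that act as inhibitors before processing. Nfkb1 was counted with 73 and 65 reads in the controls at 24 h and 48 h, with 61 after APAP at 24 h and with 83 after APAP at 48 h. Its APAP level was 0.626 of the control at 24 h (0.438–0.892) and 1.12 of the control at 48 h (0.797–1.57). The 48 h fold was 1.78 times the 24 h fold (1.09–2.93), and the APAP libraries alone differed 1.5-fold (1.06–2.12), with the controls 1.19-fold apart in the opposite order (0.841–1.69). With the control of the other time the folds were 0.745 at 24 h and 0.938 at 48 h. The Nfkb1 entry joins Nfkb1 with Gm43430, an unclassified gene on the same strand within it, and reads of both are counted together.

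Nfkb2 gave 21 and 16 reads in the controls at 24 h and 48 h, 34 after APAP at 24 h and 33 after APAP at 48 h. Both APAP libraries lay above both controls, by 1.21-fold at 24 h (0.684–2.20) and 1.80-fold at 48 h (0.965–3.51) after scaling. Both intervals include 1. Scaled by library totals, the 48 h fold was 2.17. The 3′ end of Nfkb2 overlaps Psd on the opposite strand, and an Nfkb2 transcript ends on 299 bases that are the reverse complement of Psd. Psd was counted with 11 and 7 reads in the controls at 24 h and 48 h and with 8 and 12 in the APAP libraries, and since the sources used here do not say whether counting used the strand, reads of Nfkb2 and Psd may not be fully separated.

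Relb encodes the partner that Nfkb2 releases in the non-canonical pathway. It was counted with 10 reads in the control at 24 h, 3 in the control at 48 h, 15 after APAP at 24 h and 20 after APAP at 48 h. The 48 h control was the lowest of the 4 libraries. APAP exceeded the control 1.12-fold at 24 h (0.472–2.80) and 5.83-fold at 48 h (1.73–30.6), and the ratio of these folds was 5.19 (1.05–33.4). With the control of the other time, the 24 h fold became 3.97 and the 48 h fold 1.65. The APAP libraries differed 1.47-fold with an interval that includes 1 (0.714–3.08), as did the interval of the controls, where the 24 h level was 3.53 times the 48 h level (0.910–19.99).

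**Figure D3:**
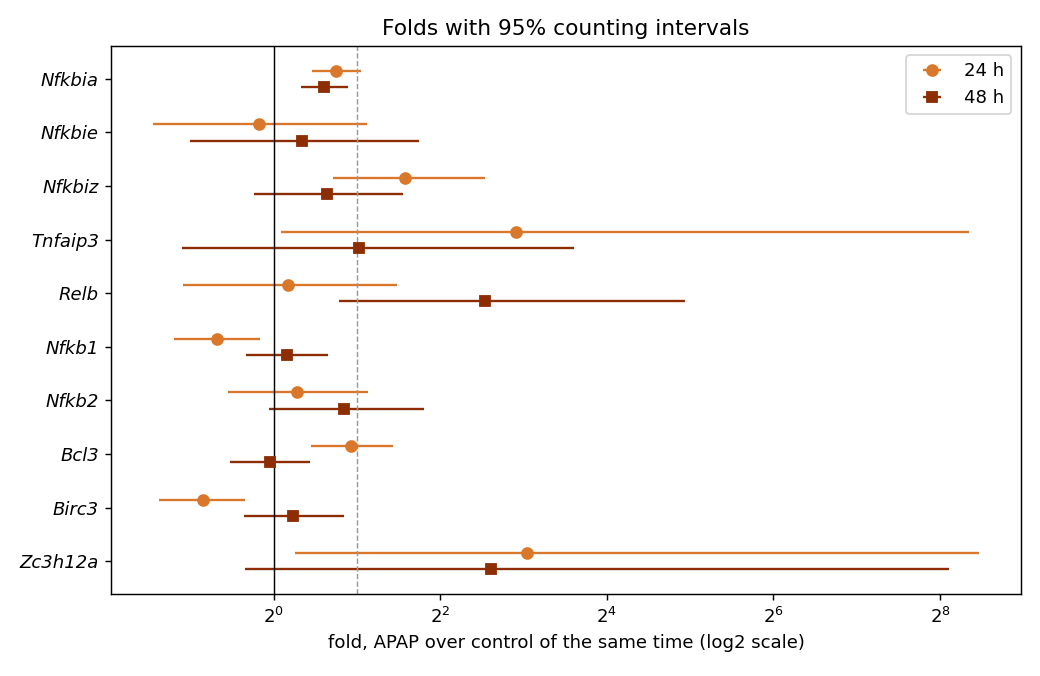
Fold of APAP over the control of the same time (horizontal axis, log2 scale) for each gene at 24 h (circles) and 48 h (squares), with 95% exact counting intervals as lines, a solid line at 1 and a dashed line at 2. Nfkbia lies right of 1 at both times, Nfkb1 and Birc3 lie left of 1 at 24 h, and the lines of Tnfaip3 and Zc3h12a are the widest of all at 24 h.

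The control pools were compared with each other because the Birc3 and Relb values turned on them. Of the 10 genes, Relb differed at least 2-fold between the controls, where 9.03% of all genes tested did in either direction. The 24 h control also differed from the 48 h control in acute-phase transcripts that NF-κB is known to drive: Saa3, a serum amyloid A gene, was counted with 1487 reads there and with 147 to 195 reads in the other 3 libraries. Lcn2, which encodes lipocalin-2, was counted with 3710 reads in the 24 h control and 673 in the 48 h control, and with 11781 and 3474 after APAP at these times, so that the 24 h control lay between the APAP libraries. The 24 h control thus exceeded the 48 h control 9.38-fold in Saa3 (8.0–11.1) and 5.85-fold in Lcn2 (5.38–6.35). Saa3 and Lcn2 stand apart in this from the rest of the list of other NF-κB targets used below. For every other gene of that list the interval of this ratio included 1, as for Cxcl1 (0.530, 0.142–1.70) and Sod2 (0.971, 0.880–1.07). The part of this difference between control pools in the 24 h values of Birc3, Nfkb1, Bcl3 and Relb was not tested.

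A comparison within each library, chosen after the counts had been seen, set the other genes against Nfkb1 and so needed no size factor. In the controls, 1.89 reads of Nfkbia were counted per Nfkb1 read at 24 h and 2.58 at 48 h, against 5.10 and 3.53 in the APAP libraries. This ratio was 2.70 times the control at 24 h (1.78–4.08) and 1.37 times at 48 h (0.920–2.02). Bcl3 gave 3.04 at 24 h (1.85–5.01) and 0.869 at 48 h (0.538–1.40), and Nfkbiz gave 4.79 at 24 h (2.34–10.2) and 1.39 at 48 h (0.686–2.88). Nfkbie, at 1.41 (0.540–3.75), and Nfkb2, at 1.94 (0.975–3.89), had 24 h intervals that included 1. Since the 24 h folds of Nfkbia, Nfkbiz and Bcl3 already lay above 1 and that of Nfkb1 below 1, these ratios restate those folds and are no further evidence. The balance of Birc3 to Nfkb1 differed from the control by less than counting error at both times, at 0.886 (0.531–1.48) and 1.06 (0.614–1.82). Relb reached 5.22 at 48 h (1.44–28.4), which again rests on 3 reads in the control.

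**Figure D4:**
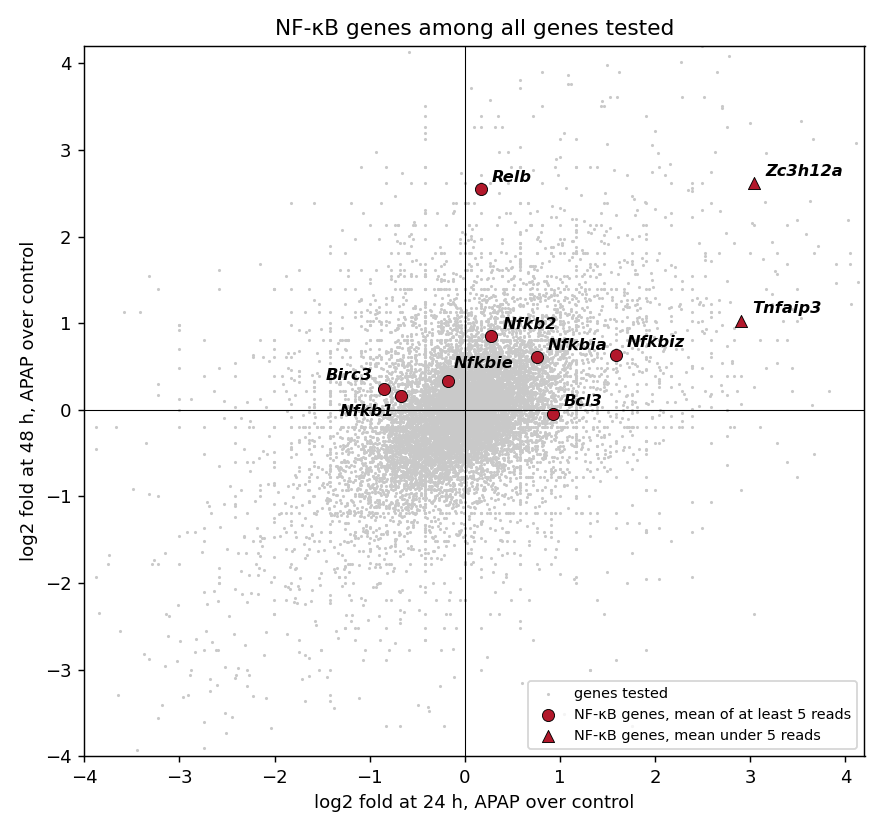
Log2 fold of APAP over control at 24 h (horizontal axis) and at 48 h (vertical axis) for all genes tested (grey) and the NF-κB genes (red circles, or triangles where the mean was under 5 reads), with 44 tested genes outside the axes. Zc3h12a and Tnfaip3 lie far to the right, Relb lies high at 48 h and near 0 at 24 h, and Birc3 and Nfkb1 lie left of 0 at 24 h and above 0 at 48 h. On library totals, Nfkbie at 24 h and Bcl3 at 48 h fall on the other side of 0.

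The remaining subunits are Rela, the main transactivating partner, and Rel. Rela was counted with 139 and 102 reads in the controls at 24 h and 48 h and with 203 and 151 in the APAP libraries, which is 1.09-fold at 24 h (0.877–1.37) and 1.29-fold at 48 h (1.0–1.68). Rel gave 11 and 4 reads in the controls and 10 and 15 after APAP, with folds of 0.681 (0.259–1.77) and 3.28 (1.04–13.6). Like Relb and Birc3, Rel had fewer reads in the 48 h control than in the 24 h control.

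Further genes of the pathway were taken from lists by role, which were written with earlier results known. Beside the counts by role stand the shares of all genes tested. At least 2-fold higher were 7.88% at 24 h and 8.14% at 48 h, and at least 2-fold lower were 7.44% and 6.93%. Of 17 other inhibitors, 14 passed the minimum of reads, and none was at least 2-fold higher or lower at 24 h and 1 was at least 2-fold higher at 48 h. This was Tnip2, which encodes a partner of the protein of Tnfaip3, with 13 reads in the 24 h control, 0 in the 48 h control, which allows up to 3 reads, and 22 and 15 after APAP (at least 4.37-fold higher at 48 h against that limit of 3 reads, with a lower counting bound of 3.14). Of 11 kinases tested, the 2-fold size was passed upward by 2 at 24 h and by 0 at 48 h. Map3k14, the kinase that starts the non-canonical pathway, was counted with 4 and 17 reads in the controls and 22 and 24 after APAP, with folds of 4.12 (1.40–16.4) and 1.23 (0.636–2.45). Its 24 h fold likewise follows a low control. Tab3, an adaptor of the kinase complex below interleukin-1 and tumour necrosis factor receptors, gave 2.10-fold at 24 h (0.714–7.44). None of the 15 adaptors tested was at least 2-fold higher or lower at either time.

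Ligand transcripts were scarce, and 2 of the 7 ligand genes in the table passed the minimum of reads. Tnf was counted with 0 reads in both controls and 3 reads in each APAP library, and Il1b with 1 and 0 reads in the controls and 4 and 1 after APAP, so that no fold could be given for Tnf. Il1a, at 5 and 4 reads in the controls and 4 and 12 after APAP, had a 48 h fold of 2.62 (0.795–11.2) and was the ligand gene at least 2-fold higher at that time. Of 11 receptors tested, 4 passed the 2-fold size upward at 24 h and 3 at 48 h, and 1 was at least 2-fold lower at 48 h. The shares of all genes tested were 7.88%, 8.14% and 6.93%. Tnfrsf12a, the receptor of the cytokine TWEAK, was counted with 37 and 34 reads in the controls and 331 and 160 after APAP (6.70-fold, 4.76–9.69, and 4.12-fold, 2.83–6.15). Cd14, a co-receptor for bacterial lipopolysaccharide, gave 11.5-fold at 24 h (4.74–36.5) and 2.08-fold at 48 h (1.13–3.99), and Il1r1, the receptor of interleukin-1, gave 4.61-fold (3.35–6.50) and 1.86-fold (1.37–2.56). Tnfrsf11a, the receptor RANK, gave 4.31-fold (1.47–17.1) and 4.66-fold (1.33–24.98). Other receptors of the list went lower. Il1rap was counted with 516 and 560 reads in the controls and 349 and 350 after APAP, at 0.507 (0.441–0.582) and 0.547 (0.477–0.626). Tlr3, the receptor at least 2-fold lower at 48 h, was then at 0.460 (0.191–1.04).

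Of 17 other NF-κB targets tested, 8 were at least 2-fold higher and 2 at least 2-fold lower at 24 h, and 5 were higher and 1 lower at 48 h. For all genes tested these shares were 7.88% and 7.44% at 24 h and 8.14% and 6.93% at 48 h. The chemokine gene Cxcl1 was counted with 5 and 10 reads in the controls and with 187 and 119 after APAP, at 28.0-fold (11.8–87.3) and 10.4-fold (5.46–22.3). Ccl2, which attracts monocytes, gave 5.62-fold (1.98–22.0) and 18.4-fold (6.00–91.4), and the stress gene Gadd45b gave 34.5-fold (5.88–1390) on 1 control read and 6.56-fold (1.53–59.1) on 2. Saa3 went the other way, at 0.0982 of the control at 24 h (0.0842–0.114), where the control was the high library, and 0.765 at 48 h (0.609–0.960). Psmb9 was the other target at least 2-fold lower at 24 h and the only such target at 48 h. It was counted with 78 and 104 reads in the controls and 45 and 53 after APAP, at 0.432 (0.293–0.632) and 0.446 (0.314–0.626). The median log2 folds by role at 24 h and 48 h were -0.21 and 1.04 for Rela with Rel, 0.21 and 0.18 for other inhibitors, 0.52 and 0.30 for kinases, 0.13 and -0.09 for adaptors, 0.46 and 0.72 for ligands, 0.71 and 0.49 for receptors and 0.89 and 0.74 for other targets. The 0.52 and 0.62 of the 10 feedback and subunit genes lay between those of adaptors and of other targets at both times, a description without a test. Each of these medians is over all genes of a role with a fold, also those below the minimum of reads, as Tnfaip3 and Zc3h12a are.

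**Figure D5:**
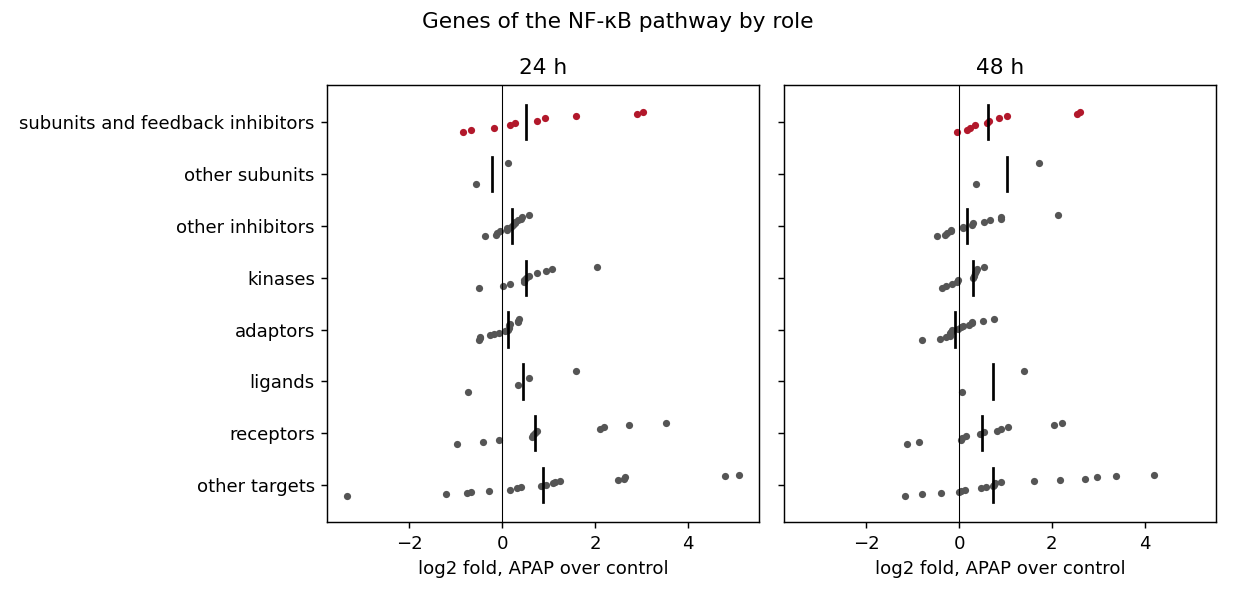
Log2 fold of APAP over control (horizontal axis) at 24 h and 48 h for genes of the NF-κB pathway grouped by role, each point a gene with a fold and each vertical bar the median of its group. The 10 subunit and feedback genes (red) span -0.85 to 3.04 at 24 h, and other targets span -3.35 to 5.11.

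The summed level of 7 hepatocyte markers was 83263 and 83996 RPM in the controls at 24 h and 48 h and 92633 and 105208 after APAP. The summed level of 5 neutrophil markers (of 7 listed) was 3.29 and 3.27 RPM in the controls at 24 h and 48 h and 43.9 and 34.6 after APAP, and S100a8, a granule protein gene of neutrophils, gave 5 and 10 reads in the controls and 139 and 106 after APAP. All 4 neutrophil markers with enough reads were at least 2-fold higher after APAP at both times, as were 2.76% of all genes tested. For the counts at a single time below, these shares are 7.88% at 24 h and 8.14% at 48 h. The 5 monocyte markers summed to 392 and 440 RPM in the controls and 940 and 758 after APAP, with 4 of them past 2-fold at 24 h and 3 at 48 h. Most of that sum came from Fn1, the fibronectin gene, at 364 and 410 RPM in the controls and 855 and 595 after APAP. The sum therefore follows Fn1 more than the other markers and was not taken as a level of monocytes. Lyz2, the lysozyme gene of myeloid cells, was instead highest in the 48 h APAP library, with 84 and 107 reads in the controls and 384 and 659 after APAP. The 8 Kupffer cell and macrophage markers summed to 176 and 172 in the controls and 212 and 323 after APAP, with 1 past 2-fold at 24 h and 2 at 48 h. Members of that list differed: Clec4f, which defines resident Kupffer cells, was at 0.534 of the control at 24 h (0.441–0.645) and 0.985 at 48 h (0.831–1.17), whereas the scavenger receptor gene Marco was 3.06-fold (2.30–4.13) and 3.99-fold (2.78–5.87) and Cd68 1.88-fold (1.40–2.56) and 5.11-fold (3.87–6.86). The 7 lymphocyte markers stayed between 1.23 and 2.88 RPM, with Cd8a at 0 in every library. The 5 endothelial markers summed to 112 and 123 RPM in the controls and 134 and 150 after APAP. By fold, however, only 2 of the 5 were above 1 at each time, with median log2 folds of -0.09 and -0.15. The 5 stellate cell markers summed to 34.0 and 34.9 RPM in the controls and 47.9 and 117 after APAP, with a fold above 1 for 3 of the 5 at each time. The 5 cholangiocyte markers summed to 25.9 and 32.6 RPM in the controls and 81.9 and 66.2 after APAP, and most of that sum came from Sox9 and Spp1. Members of this list differed as well: 4 of the 5 had a fold above 1 at 24 h but only 2 at 48 h, with median log2 folds of 0.91 and -0.71. In RPM, the sums of all these marker lists except that of lymphocytes were higher in both APAP libraries than in both controls. So was each of the 10 NF-κB genes except Nfkb1 and Birc3, though Nfkbie only by 2.28 against 2.26 RPM at 24 h. The share of all genes tested with this pattern was not computed. Unlike the folds, these RPM values are scaled by library totals, which moved the median log2 fold of all genes tested to 0.19 at 24 h and 0.26 at 48 h. The part of these cells in the values of the NF-κB genes was not tested.

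The genes lie on 9 chromosomes (GENCODE M21, GRCm38), with Relb and Bcl3 close together on chromosome 7. Since MACE reads start near the 3′ end of mRNA, a gene is seen through its last exon. Nfkbia lies at chr12:55489410-55492647 on the minus strand with 6 exons and a last-exon 3′ untranslated region of 515 bases. Relb (chr7:19606217-19629438) and Bcl3 (chr7:19808462-19822770) both lie on the minus strand, as do Nfkbiz (chr16:55811375-55838899), Tnfaip3 (chr10:19000910-19015657), Nfkb1 (chr3:135584655-135691547), Birc3 (chr9:7848699-7873186) and Zc3h12a (chr4:125118423-125127840). Nfkbie (chr17:45555703-45563169) and Nfkb2 (chr19:46304320-46312385) lie on the plus strand. Apart from Nfkb2, no gene of the 10 matched a transcript of another gene, on either strand, in its last 300 bases (at least 95% identity over at least 100 bases). Bcl3 overlaps the antisense gene Gm16174 outside its 3′ untranslated region, and Gm16174 was counted with 9 and 13 reads in the controls and with 21 and 19 after APAP, which may likewise not be fully separated from Bcl3.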

How the data were processed

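Hepatic RNA was measured as 4 pooled libraries, 1 per group. After DNase treatment the authors made MACE libraries, collapsed duplicates by unique molecular identifiers, trimmed the reads, mapped them to mm10 and deposited raw HTSeq counts per gene. Versions and the strand setting are not given in the sources used here. The same table holds scaled counts and the authors' own log2 ratios, p-values and false discovery rates, none of which were used.

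The deposited counts were divided by median-of-ratios size factors (DESeq2 1.42.0, R 4.3.3). Python 3.11.15 gave the folds, their exact Clopper-Pearson intervals (scipy 1.17.1) and the plots (matplotlib 3.10.9), with tables handled in pandas 2.3.3 and numpy 2.4.6. The interval of a ratio of folds is the exact conditional interval of the odds ratio. A library at 0 reads was set to 3 reads, which makes the fold a bound, and no fold was given where both libraries had 3 reads or fewer. Depth was 4859661 to 5698778 reads, and intervals cover counting error only, at a confidence of 95%. No DESeq2 or edgeR test was run, since each group has 1 library. Scripts were tested on simulated data. Alternatives were edgeR 4.0.16 (TMM), library totals, other treatments of low counts, other control pools and other minimums of reads. Positions came from GENCODE M21, and shared 3′ ends were sought with blastn 2.17.0.

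The members and lists were chosen with earlier results of these data known. Besides the members, Rela and Rel, up to 4 genes per list were named, those at least 2-fold higher or lower at 24 h or 48 h ranked by the distance of their interval from 1, and up to 2 marker genes per cell type. Tnf, Il1b, Lcn2, Psmb9, Sod2, Il1rap, Tlr3, Marco, Cd68, Sox9, Spp1, Psd and Gm16174 were named after their values were seen.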

Additional observations from a re-analysis of the deposited data

Results flagged for a closer look

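The folds of 4 genes lay on opposite sides of 1 at 24 h and 48 h. This difference was not tested because each group is 1 pooled library. The share of all genes tested with such a change of side was not computed, so this count has no background. Among the genes tested with a fold, 7051 of 14000 lay above 1 at 24 h and 6959 of 13985 at 48 h. The log2 fold at 48 h minus that at 24 h was 1.09 for Birc3, 0.83 for Nfkb1, -0.97 for Bcl3 and 0.51 for Nfkbie. For Birc3, Nfkb1 and Bcl3 the counting interval of the ratio of both folds excluded 1, and for Nfkbie it did not (0.381–5.39). For these intervals, too, no share of all genes tested was computed. Scaled by library totals, Nfkbie at 24 h (1.01-fold) and Bcl3 at 48 h (1.17-fold) moved to the other side of 1, so that for these genes both times were then above 1. The 24 h control pool held the most normalised reads of Birc3 and Nfkb1 and the fewest of Bcl3 among the 4 libraries, and its part in these values was not tested.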

How the results depend on the processing

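Of 230 recomputed values, 207 stayed within their counting spread or within 1.5 times the count. Among the counts of genes and the median log2 folds, 51 stayed and 19 moved. Among the folds of single genes and their ratios, 156 stayed and 4 moved. A wide interval keeps a value inside it, as for Tnfaip3 at 24 h, which went from 7.49-fold to 2.50-fold. Lifting the minimum of reads could not move values of the 10 genes, which were counted without it. No gene past 2-fold turned to the other side of 1. Below 2-fold, Birc3 turned with the control of the other time (1.05 at 24 h, 0.621 at 48 h), as did Nfkbie at both times (1.15 and 0.975), Nfkb1 at 48 h (0.938) and Bcl3 at 48 h (1.34). Scaling by library totals moved the median log2 fold of all genes tested to 0.19 at 24 h and 0.26 at 48 h. The 3 genes at least 2-fold higher at 24 h became 1 with a mean of at least 20 reads, and the 3 at 48 h became 1 where the interval also had to lie above 1 and 0 with a mean of at least 20 reads. The 2 genes at least 5-fold higher at 24 h became 0 with counts of 3 or fewer set to 3, with a pseudocount of 1 or with a mean of at least 20 reads, and 1 with the control of the other time or the sum of both controls. The 2 at 48 h became 0 with a pseudocount or a mean of at least 20 reads, and 1 with counts of 3 or fewer set to 3, with the sum of both controls or with the interval above 1. Of all genes tested, the 1106 at least 2-fold higher at 24 h became 737 with the interval above 1 and 396 with a mean of at least 20 reads. The 1142 at 48 h became 1826 with library totals, 721 with the interval above 1, 1730 without a minimum and 389 with a mean of at least 20 reads. The mean of at least 20 reads leaves fewer genes, and the cause of the other changes was not tested. Over the alternatives the 24 h fold ran from 2.50 to 8.53 for Tnfaip3, from 2.75 to 9.38 for Zc3h12a and from 1.11 to 3.97 for Relb, and the median log2 folds of the 10 genes kept their direction. No replicate could be left out, and depth limits every gene with few reads. No paired analysis was possible because each group has 1 library and no fit across replicates was made.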
